A study of Mus musculus with 10 samples.

Results

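The DEAD box and DEAH box families of RNA helicases are named for the amino acids Asp-Glu-Ala-Asp and Asp-Glu-Ala-His in the motif that binds ATP and magnesium. DEAD box proteins (Ddx symbols) usually pull short RNA duplexes apart locally, and DEAH box proteins (Dhx symbols) usually move along a strand. They act at nearly every step in the life of an RNA, from transcription and splicing through ribosome assembly and export to translation and decay, and several also unwind RNA-DNA hybrids. In an R-loop, RNA pairs with a DNA strand and leaves the other DNA strand unpaired, so a helicase such as Dhx9 or Ddx5 that opens the hybrid can remove the structure.

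The members were the protein-coding genes of the autosomes and the X chromosome whose GENCODE vM21 symbol begins with Ddx or Dhx followed by a digit. The rule found 52 genes among the 55487 in the tables, 36 of them Ddx and 16 Dhx. It left out the Y-linked Ddx3y and the noncoding Dhx58os. The rule reads the symbol only, so a member need not carry the letters that name the families, which were not checked here. The members lie on 16 chromosomes, with the most on chromosome 11 (8 genes) and chromosome 8 (7 genes). From general knowledge of the field, 11 members were marked as reported to unwind or limit RNA-DNA hybrids, and this set is called the R-loop list. It was chosen with earlier results of these data known.

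All values come from RNA-seq of E14 cells, an established line of mouse embryonic stem cells. There was 1 group with 3 replicates, and no genetic change or experimental treatment is named for it. The cells were grown in medium with serum, LIF, a GSK inhibitor and a MEK1/2 inhibitor, which all replicates share. The other samples of the series map R-loops by MapR and BisMapR and were not analysed here, so no difference between conditions was tested. The labels do not say whether the replicates were separate cultures, so the spread over them may be technical.

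Summed estimated counts were 11420425 for replicate 1, 6467405 for replicate 2 and 5787357 for replicate 3. The 8 markers of pluripotent stem cells all had a mean of at least 1 TPM, a transcript abundance scaled by length and library, with a median of 59.5 ± 5.73 TPM (SD, n = 3). The 6 fibroblast markers summed to between 1.24 and 3.37 TPM per replicate, mostly Thy1, and 3 of them (Col3a1, Postn and Lum) had 0 counts in every replicate. The biological coefficient of variation, the spread between replicates beyond counting noise in edgeR, was 0.162 over 12577 genes. Without replicate 3 it was 0.0906, over the 13608 genes that then passed the count filter.

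The upstream windows of 4 members are printed here to show the range of CpG content at high and at low expression. Each window is the 250 bases before the transcription start, with start and sequence taken from RefSeq (GRCm38.p6) and written from 5′ to 3′ on the strand of the gene, with every CpG dinucleotide in capitals. The Dhx9 window is chr1:153487661-153487910 (minus strand), the Ddx5 window chr11:106789186-106789435 (minus strand), the Ddx25 window chr9:35558471-35558720 (minus strand) and the Ddx60 window chr8:61927837-61928086 (plus strand).
Dhx9: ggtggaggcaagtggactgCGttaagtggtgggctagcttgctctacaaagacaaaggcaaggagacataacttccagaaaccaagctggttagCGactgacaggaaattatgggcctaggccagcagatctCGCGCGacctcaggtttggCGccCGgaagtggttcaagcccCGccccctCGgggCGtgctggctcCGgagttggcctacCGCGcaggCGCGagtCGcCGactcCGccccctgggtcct
Ddx5: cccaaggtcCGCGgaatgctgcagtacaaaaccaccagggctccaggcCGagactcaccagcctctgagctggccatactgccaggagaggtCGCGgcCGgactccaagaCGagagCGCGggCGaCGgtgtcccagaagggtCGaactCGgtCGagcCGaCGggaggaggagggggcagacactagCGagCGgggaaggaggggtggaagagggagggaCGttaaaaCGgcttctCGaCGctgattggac
Ddx25: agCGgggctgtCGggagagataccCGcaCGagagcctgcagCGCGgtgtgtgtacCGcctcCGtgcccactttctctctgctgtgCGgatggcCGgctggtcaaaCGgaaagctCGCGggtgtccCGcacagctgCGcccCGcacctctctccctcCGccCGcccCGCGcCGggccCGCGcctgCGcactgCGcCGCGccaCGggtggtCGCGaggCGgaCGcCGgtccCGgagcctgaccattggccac
Ddx60: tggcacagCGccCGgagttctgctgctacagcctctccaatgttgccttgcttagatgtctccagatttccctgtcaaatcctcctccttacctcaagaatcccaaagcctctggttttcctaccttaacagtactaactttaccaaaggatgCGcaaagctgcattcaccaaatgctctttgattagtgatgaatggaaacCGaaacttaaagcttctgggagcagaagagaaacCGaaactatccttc
Windows were matched for 46 of the 52 members. Dhx9 and Ddx5, R-loop helicases at high levels, had 18 and 22 CpG in these windows. Ddx25, a testis helicase at a low level, had 34, more than any other member matched. Ddx60, an antiviral factor close to the limit of detection, had 5.

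The first question was which helicases these cells expressed. A mean of at least 1 TPM was reached by 47 of the 52 members. The same limit was passed by 44.5% of the 21709 protein-coding genes of the autosomes and X. The median level of the members was 10.5, 8.08 and 7.32 TPM in replicates 1, 2 and 3. On the log2(TPM + 1) scale it was 3.26 ± 0.24 (SD, n = 3), against 0.56 ± 0.11 (SD, n = 3) for all protein-coding genes. The difference of 2.69 ± 0.14 (SD, n = 3) shrank to 0.61 when only genes with a mean of at least 1 TPM were kept on both sides.

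Levels within the family spanned a wide range. Of the 47 members past the limit, 10 had a mean of at least 20 TPM, 28 lay between 5 and 20 TPM and 9 between 1 and 5 TPM. The lowest member past 20 TPM, Ddx27, ranked 1434 among the 21709 protein-coding genes. Dhx35, the lowest past 5 TPM, ranked 5176. The 10 highest members, Ddx5, Dhx15, Dhx9, Ddx3x, Ddx17, Ddx39, Dhx16, Ddx21, Ddx39b and Ddx27, held 58.2% ± 1.26 (SD, n = 3) of the summed TPM of the family. All members together held 0.456%, 0.433% and 0.422% of the TPM of protein-coding genes in replicates 1, 2 and 3. Every TPM also depends on the very short genes in its denominator. With genes of an effective length under 100 nt left out, Ddx5 went from 91.6 to 249 TPM, Dhx9 from 54.2 to 147 and Ddx58 from 0.693 to 1.90, and 49 members passed 1 TPM.

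**Figure D1:**
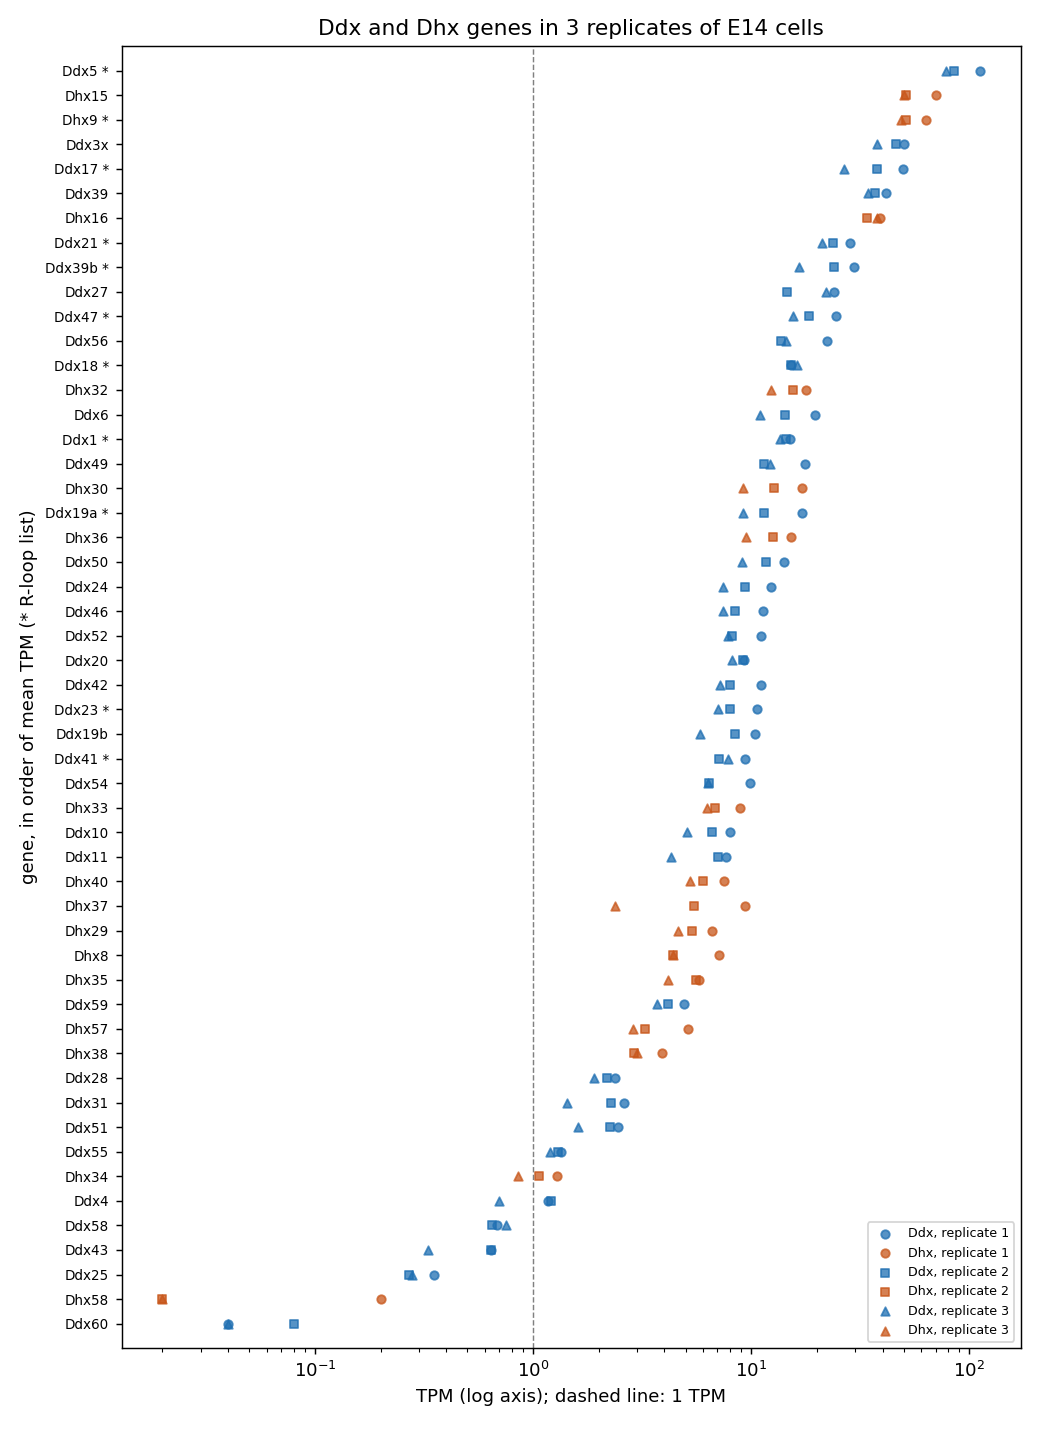
TPM of the 52 helicase genes (log axis) in replicates 1 (circles), 2 (squares) and 3 (triangles), ordered by mean TPM, Ddx in blue and Dhx in orange; an asterisk marks the R-loop list and the dashed line is 1 TPM. Ddx5 was highest in every replicate, and Ddx58, Ddx43, Ddx25, Dhx58 and Ddx60 had all their points to the left of the line.

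The order of the levels was similar in the 3 libraries, but few neighbours in it were separated. Across the 52 genes, which are not independent replicates and share each library, Spearman's rho of TPM was 0.985 for replicates 1 and 2 and for replicates 2 and 3, and 0.977 for replicates 1 and 3. The replicate ranges overlapped in 45 of the 51 pairs of neighbours in the order of mean TPM, so most ranks do not separate genes beyond their spread. Both genes of a pair share each library, and within libraries the order was the same in all 3 replicates for 16 of the 51 pairs, among them Dhx15 above Dhx9, Dhx9 above Ddx3x and Ddx3x above Ddx17. The 6 gaps without overlap were Ddx5 above Dhx15, Dhx16 above Ddx21, Dhx38 above Ddx28, Ddx51 above Ddx55, Ddx58 above Ddx43 and Ddx25 above Dhx58. They hold for deposited TPM. With the longest transcript as length (described further on), Dhx16 (12.1, 14.1 and 8.81 TPM) lay below every replicate of Ddx21 (25.6, 26.4 and 15.6 TPM). On that scale Ddx25 stayed above Dhx58 without overlap, and the ranges overlapped in each of the other pairs named. No test was made between genes.

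The R-loop list had a higher median level than the other members. The median level was 24.6, 18.5 and 16.3 TPM in replicates 1, 2 and 3, and that of the other 41 members was 8.85, 6.64 and 5.24 TPM. The difference of medians in log2(TPM + 1) was 1.38, 1.35 and 1.47 in the 3 replicates, a mean of 1.40 ± 0.06 (SD, n = 3). The SD of this and the other differences of medians is over libraries that measure the same genes, and leaves out the spread between genes. Mean levels ran from 8.1 to 91.6 TPM in the list and from 0.0533 to 57.3 TPM in the other members. All 11 genes of the list passed 1 TPM, and the lowest of them, Ddx23 and Ddx41, stood at places 27 and 29 of the 52. The size depended on the unit, with 0.91 for log2(CPM + 1), the counts divided by the library total with no length scaling.

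Ddx5 (ENSMUSG00000020719, GRCm38 chromosome 11, 106780355 to 106789185) encodes a helicase of transcription and splicing that is also reported to open R-loops. It had 111.49, 84.85 and 78.48 TPM in replicates 1, 2 and 3, a mean of 91.6 ± 17.5 TPM (SD, n = 3). Its lowest replicate lay above the highest replicate of every other member, and its mean ranked 236 among protein-coding genes. By CPM, which is not scaled by length, it had 519, 540 and 430 against 538, 559 and 582 CPM for Dhx9. Ddx5 was thus above Dhx9 in every replicate per length and below it in every replicate by reads.

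Dhx9 (ENSMUSG00000042699, chromosome 1, 153455758 to 153487660), also called RNA helicase A, unwinds RNA-DNA hybrids and structured RNA. It had 62.97, 51.01 and 48.55 TPM, a mean of 54.2 ± 7.71 TPM (SD, n = 3), from 6143, 3613 and 3366 counts. Its range overlapped that of Dhx15, which was higher in every replicate, and Dhx9 was the third in the order of means.

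The close relative of Ddx5 in the list, Ddx17 (ENSMUSG00000055065, chromosome 15, 79527736 to 79546741), had 49.71, 37.82 and 26.62 TPM. Ddx21, a nucleolar helicase that also acts at genes transcribed by RNA polymerase II, had 28.51, 23.75 and 21.04 TPM. Ddx39b, a subunit of the TREX complex that couples transcription to mRNA export, had 29.74, 23.91 and 16.48 TPM. The ranges of Ddx21 and Ddx39b overlapped, and both lay below Dhx9 in every replicate.

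The remaining R-loop helicases had moderate levels. Ddx47, which acts in ribosomal RNA processing, had 24.56, 18.49 and 15.54 TPM. Ddx18, a nucleolar helicase, had 15.30, 15.29 and 16.27 TPM, a coefficient of variation of 3.6%, but 24% on the TMM-scaled CPM described further on. Ddx1, a subunit of the tRNA ligase complex, had 15.02, 14.44 and 13.55 TPM. The ranges of Ddx47 and Ddx18 overlapped, and every replicate of Ddx1 lay below both in deposited TPM. By CPM, Ddx1 was above both in every replicate, with 166, 188 and 205. Ddx47 had 84.4, 77.8 and 83.3 CPM, and Ddx18 75.8, 88.8 and 106 CPM. With the longest transcript as length, Ddx1 (mean 14.7 TPM) was above Ddx47 (mean 7.93 TPM) in every replicate. On that scale Ddx1 stayed below Ddx18 (mean 15.6 TPM) in every replicate, with overlapping ranges.

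Ddx19a, which remodels mRNA at the nuclear pore, had 17.04, 11.46 and 9.19 TPM. Ddx23, a helicase of the U5 particle of the spliceosome, had 10.65, 8.02 and 7.07 TPM. Ddx41, which acts in splicing and in the sensing of DNA, had 9.35, 7.11 and 7.85 TPM. The ranges of Ddx23 and Ddx41 overlapped.

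**Figure D2:**
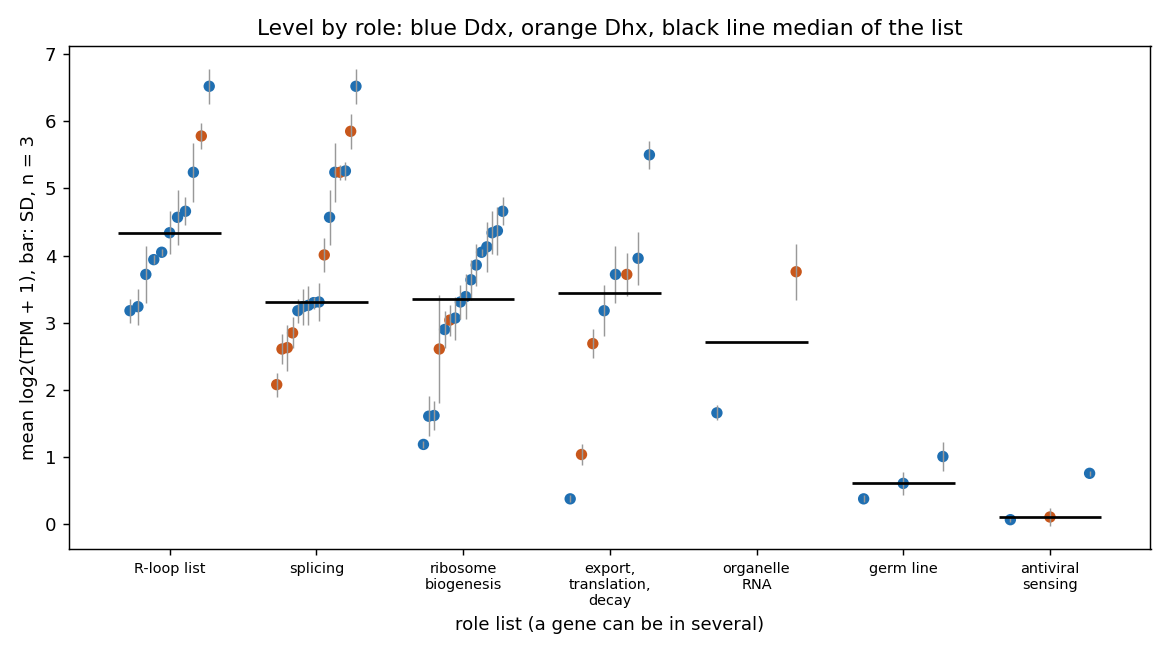
Mean log2(TPM + 1) of each member by role list, with bars for the SD over 3 replicates, Ddx in blue and Dhx in orange, and a black line at the median of the genes' means; a gene can appear in several lists. The R-loop list had the highest median, and the germ line and antiviral genes lay near or below 1.

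Splicing helicases use ATP to drive the spliceosome from step to step. All 16 members of the splicing list passed 1 TPM, with a median of 9.33 ± 1.67 TPM (SD, n = 3). Dhx15, which releases spent spliceosomes, had 70.24, 51.50 and 50.25 TPM and was the second in the family. Ddx39, which like Ddx39b links splicing to mRNA export, had 41.41, 37.00 and 34.23 TPM. Dhx16, which activates the spliceosome, had 39.07, 33.84 and 37.85 TPM, and its range overlapped that of Ddx39. At the low end, Dhx38, which acts between the catalytic steps, had 3.89, 2.91 and 2.98 TPM, below every replicate of Dhx8 (7.10, 4.39 and 4.39 TPM), which releases the spliced mRNA.

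Between these lay Ddx46, needed for an early step of branch site recognition, at 11.30, 8.43 and 7.46 TPM. Ddx42, a partner of the SF3B complex, had 11.10, 7.96 and 7.19 TPM. Ddx20, part of the SMN complex that assembles spliceosomal particles, had 9.31, 9.14 and 8.16 TPM. The ranges of these 3 genes overlapped, with Ddx46 above Ddx42 in every replicate and Ddx20 in no fixed order with either.

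Ribosome biogenesis in the nucleolus uses many DEAD box helicases. All 16 members of that list passed 1 TPM, with a median of 9.35 ± 2.10 TPM (SD, n = 3), close to the median of the splicing list. The 4 highest were Ddx21, Ddx27, Ddx47 and Ddx56. Ddx27 had 23.91, 14.54 and 21.98 TPM and Ddx56 22.37, 13.76 and 14.45 TPM. Their ranges overlapped, but Ddx27 was higher in every replicate. The lowest were Ddx31 (2.61, 2.27 and 1.43 TPM), Ddx51 (2.44, 2.25 and 1.60 TPM) and Ddx55 (1.34, 1.30 and 1.20 TPM).

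Among helicases of mRNA export, translation and decay, 7 of 8 passed 1 TPM. Ddx3x (ENSMUSG00000000787, chromosome X, 13280970 to 13294052), which helps ribosomes to start on structured mRNA, had 50.11, 45.98 and 37.59 TPM. Its Y-linked relative Ddx3y, which the rule left out, had 8.82, 7.56 and 6.25 TPM. Ddx6, which represses translation and promotes decay, had 19.61, 14.32 and 10.94 TPM, and Dhx36, which unwinds G-quadruplexes, 15.19, 12.58 and 9.47 TPM.

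Lower in this list, Dhx29, which helps the small ribosomal subunit to scan structured mRNA, had 6.59, 5.34 and 4.64 TPM. Dhx34, a factor of nonsense-mediated decay, had 1.29, 1.06 and 0.85 TPM, so it fell under 1 TPM in replicate 3. Of the mitochondrial helicases, Dhx30 had 17.08, 12.67 and 9.13 TPM and Ddx28 2.38, 2.19 and 1.91 TPM, with no overlap. Ddx11, a DNA helicase of sister chromatid cohesion in another family, had 7.70, 7.04 and 4.27 TPM.

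The antiviral and germ line lists had the lowest medians of the role lists, although single genes of other lists, such as Dhx34 and Ddx55, had levels like that of Ddx4. None of the 3 antiviral genes passed 1 TPM. Ddx58, the RNA sensor RIG-I, had 0.68, 0.65 and 0.75 TPM from 62, 35 and 42 counts, so its reads were well above the 3 counts taken as the floor of detection. Dhx58, the related receptor LGP2, had 7, 1 and 1 counts, at or under that floor in 2 replicates. Ddx60 had 7, 9 and 2 counts, under the floor in replicate 3, and Dhx58 and Ddx60 cannot be ordered at this depth.

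Of the 3 germ line helicases found, Ddx4, the mouse vasa gene, had 1.17, 1.21 and 0.70 TPM from 83, 63 and 36 counts. Ddx43 had 0.64, 0.64 and 0.33 TPM, and Ddx25 0.35, 0.27 and 0.28 TPM from 65, 35 and 36 counts. The germ cell marker Dazl had 14.7 ± 3.94 TPM (SD, n = 3) and Sycp3 2.57 ± 0.611 TPM (SD, n = 3). Whether the low germ line values come from all cells or from a few was not tested.

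Ddx and Dhx genes were compared as subfamilies. The median was 9.05 ± 1.80 TPM (SD, n = 3) for Ddx and 6.30 ± 1.68 TPM (SD, n = 3) for Dhx genes, and 32 of 36 and 15 of 16 passed 1 TPM. The difference of medians in log2(TPM + 1) was 0.40, 0.48 and 0.54 in the replicates, and 0.18 for log2(CPM + 1). Dhx15, Dhx9 and Dhx16 stood in the 10 highest of the whole family, so the lower Dhx median describes the middle of the subfamily and not its top.

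In deposited TPM, the same gene was higher in all 3 replicates in each of the 7 paralog pairs examined. With the longest transcript as length, the order turned in replicate 1 for Ddx39 (17.0 TPM) against Ddx39b (18.3 TPM) and for Dhx33 (4.79 TPM) against Dhx35 (4.96 TPM). Ddx5 exceeded Ddx17 by 2.24, 2.24 and 2.95 times in TPM. The excess was smaller by CPM, with 519, 540 and 430 for Ddx5 against 438, 411 and 339 for Ddx17. It was also smaller with the longest transcript as length, at 63.0, 71.5 and 31.4 against 40.0, 40.9 and 18.6 TPM. Dhx9 exceeded Dhx30, another DEAH helicase with which it was paired here, by 3.69, 4.03 and 5.32 times. Ddx39, an export helicase, exceeded Ddx39b by 1.39, 1.55 and 2.08 times.

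Ddx21 and Ddx50, both nucleolar, lie 13613 bp apart on chromosome 10, and Ddx21 was higher by 2.01, 2.04 and 2.33 times, with 14.16, 11.67 and 9.04 TPM for Ddx50. Ddx19a and Ddx19b lie 5387 bp apart on chromosome 8, and Ddx19a was higher by 1.63, 1.35 and 1.58 times in TPM, with 10.44, 8.47 and 5.82 TPM for Ddx19b. By estimated counts the order was the opposite, with 703.81, 354.99 and 309.17 for Ddx19a and 1554.19, 884.01 and 560.83 for Ddx19b, whose deposited mean length is 5492 nt against 1782 nt. Both have counts that are not whole (by over 0.005), as when reads are divided among genes, so the split between these copies is uncertain. Dhx33 (8.85, 6.83 and 6.25 TPM), a helicase of ribosomal RNA synthesis, exceeded Dhx35 (5.78, 5.57 and 4.16 TPM), found in the spliceosome, by 1.53, 1.23 and 1.5 times. Counts were also not whole for Ddx5, Ddx3x, Ddx39b, Ddx18, Ddx6 and Ddx50.

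The level of some members depended on the length used to scale it. The deposited length is a mean over isoforms weighted by their estimated abundance, and it was under 50% of the longest transcript for 4 members, Dhx16 (33.0%), Ddx47 (41.0%), Dhx37 (42.4%) and Ddx39 (43.3%). The median over members was 86.2%, against 73.6% over protein-coding genes with at least 1 TPM. With the longest transcript in place of the deposited length, an alternative chosen after seeing the data, Dhx16 moved from 36.9 to 11.7 TPM and from place 7 to 15. Ddx39 moved from 37.5 to 16.4 TPM and Ddx47 from 19.5 to 7.93 TPM. Ddx27 moved from 20.1 to 9.84 TPM and from place 10 to 17. Ddx5, Dhx15, Dhx9, Ddx3x and Ddx17 kept places 1 to 5 by mean. Ddx5 had 63.0, 71.5 and 31.4 TPM on this scale, and in replicate 3 Dhx15 (35.8 TPM) and Dhx9 (32.8 TPM) were above it.

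**Figure D3:**
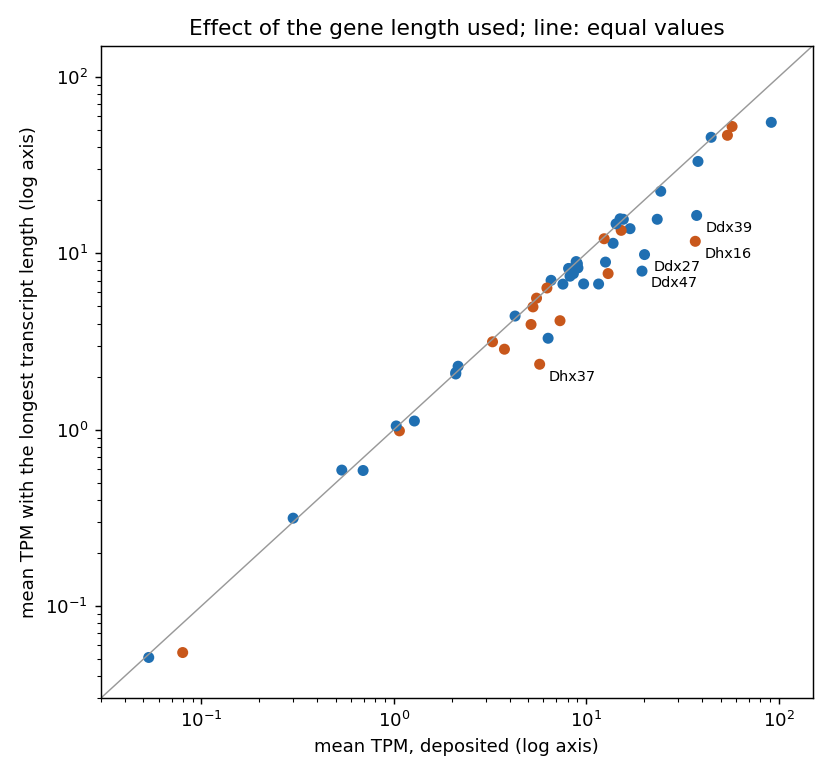
Mean TPM of the 52 members as deposited (x axis) and recomputed with the longest annotated transcript (y axis), both on log axes, Ddx in blue and Dhx in orange, with a line of equal values. The 5 labelled genes lie farthest below the line, with Dhx16 at 36.9 against 11.7 TPM.

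Variation between replicates was examined last. TPM was highest in replicate 1 for 45 of the 47 members that passed 1 TPM, all but Ddx18 and Ddx4, and the same held for 86.6% of protein-coding genes past that limit. TPM was lowest in replicate 3 for 39 of the 47, against 79.4% of those genes. Protein-coding genes together held 19.5%, 16.1% and 14.8% of TPM in replicates 1, 2 and 3. Genes with an effective length under 100 nt held 60.3%, 65.8% and 63.9%, and their part in the shift of the family was not tested.

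Counts were then scaled by TMM, a normalization between libraries. The edgeR goodness-of-fit test asks whether a gene varies more than genes of like abundance. With Benjamini-Hochberg adjustment over the 12577 genes tested, 0 of the 50 members that passed the count filter varied beyond that level, where 1.84% of all genes tested did. At an unadjusted p under 0.05 there were also 0 members, against 6.96% of all genes tested. The genes tested include noncoding ones. Of the 11199 protein-coding genes among them, 121 passed the adjusted limit and 599 the unadjusted limit. Dhx58 and Ddx60 did not pass the filter.

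With a trend on gene length removed from each replicate, 3 members reached an unadjusted p under 0.05. The same limit was reached by 6.37% of all genes tested and by 602 of the 11199 protein-coding genes. After adjustment, 0 members reached it (the smallest adjusted p, of Dhx37, was 0.613, edgeR). In the test without that step, Dhx37, a helicase of small ribosomal subunit assembly, had the smallest p-value of the members (0.0694, adjusted 0.848, edgeR). It had 31.8, 30.4 and 18.6 TMM-scaled CPM, low in replicate 3. Its TPM spread more widely, at 9.36, 5.47 and 2.37, with deposited effective lengths of 1493, 1944 and 2200 nt. Ddx18 was next in the test without that step, at 72.6, 86.5 and 116 TMM-scaled CPM, high in replicate 3.

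Replicate 3 had the highest TMM-scaled CPM for 32 of the 50 members, where 40.0% of the 11199 protein-coding genes tested did. The median deviation of members in replicate 3 from the gene mean was 0.09 (log2), and that of protein-coding genes was 0. The median coefficient of variation over replicates was 9.4% for members and 12% for protein-coding genes on this scale. These sets were not matched for abundance, so the values do not show that the family is steadier than genes of like abundance.

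**Figure D4:**
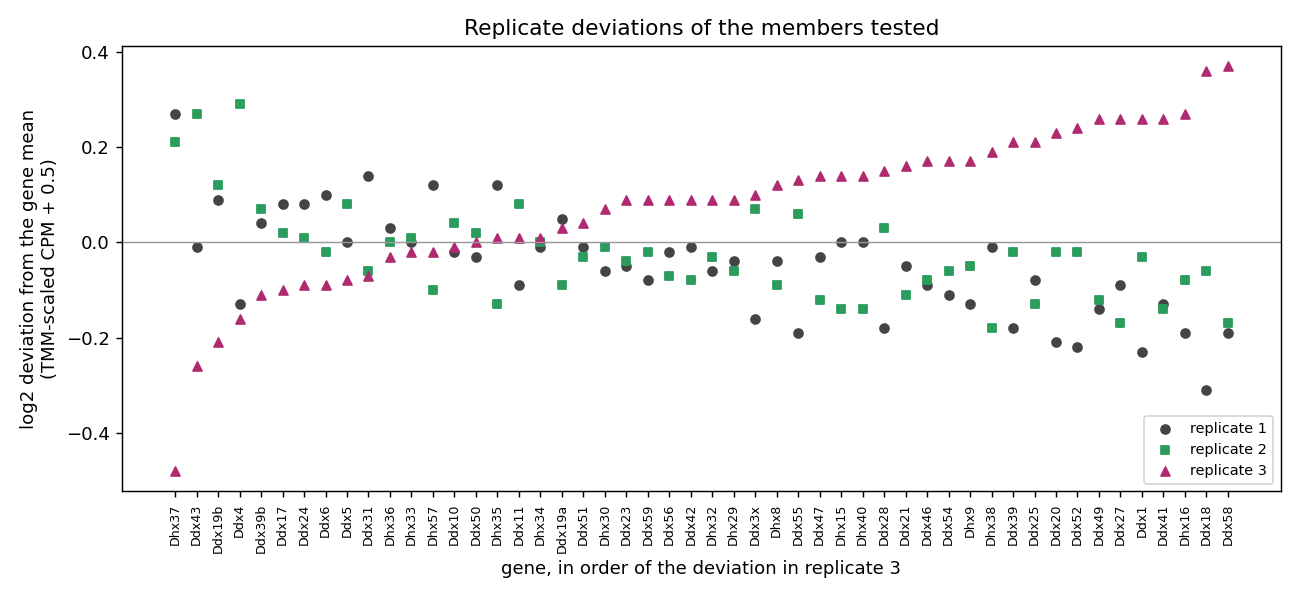
Deviation of each replicate from the gene mean in log2 of TMM-scaled CPM plus 0.5, for the 50 members tested, ordered by the value in replicate 3 (triangles). Replicate 3 lay above the other replicates for 32 members, and Dhx37 was its lowest value at -0.48.

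The members' upstream windows were set beside those of other genes. The median CpG count was 19 over the 46 members with a window, and also 19 over the 42 of them with at least 1 TPM. It was 17 over 7704 protein-coding genes with at least 1 TPM and 4 over 8719 below it. Within the family, low levels were found with both high and low counts. Ddx25 and Ddx43, both under 1 TPM, had 34 and 20 CpG, and Ddx4 had 31. Ddx58 and Ddx60 had 12 and 5, while Dhx57 and Ddx19b, which passed 1 TPM, had 4 and 5.

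**Figure D5:**
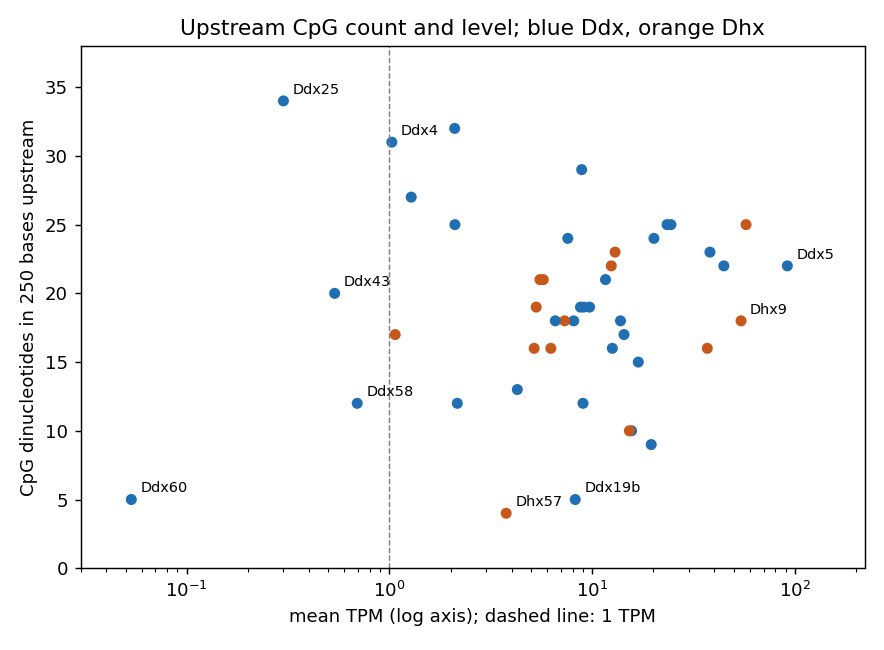
CpG dinucleotides in the 250 bases upstream of the start (y axis) against mean TPM (log x axis) for 46 members, Ddx in blue and Dhx in orange, with a dashed line at 1 TPM. The germ line genes Ddx25, Ddx4 and Ddx43, at or to the left of the line, have 34, 31 and 20 CpG, and the antiviral genes Ddx58 and Ddx60, left of it, 12 and 5.

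Exact matches to 7 promoter motifs were counted on both strands of these windows, without removing matches that share bases. CCGGAAGT, the letters bound by ETS factors, was in 5 of 46 members (10.9%), against 7.23% of protein-coding genes with at least 1 TPM and 4.07% of all. The NRF1 motif was in 6 of 46 (13.0%), against 9.85% and 5.54%. TATAAA was in 1 of 46, Ddx58, or 2.17%, against 5.27% and 11.9%. GGGCGG, read by SP and KLF factors, was in 29 (63.0%, against 62.9% and 44.7%), CCAAT in 21 (45.7%, against 38.5% and 36.2%) and the E box CACGTG in 4 (8.7%, against 9.1% and 6.83%). The YY1 motif was in 0 of 46, against 0.506% and 0.268%. The 46 include 4 members under 1 TPM. Among the 42 with at least 1 TPM, the ETS letters were in 5 (11.9%), NRF1 in 5 (11.9%) and TATAAA in 0. In the same 42, GGGCGG was in 26 (61.9%), CCAAT in 18 (42.9%), the E box in 4 (9.52%) and YY1 in 0. The Dhx9 window holds both the ETS and the NRF1 motif, and the Ddx5 window holds neither.

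Genes related to the family but outside the rule were described from fixed lists. Of 7 DEAD and DEAH helicases under other names, 5 passed 1 TPM. The translation initiation helicases Eif4a2 and Eif4a1 were highest, at 287 ± 50.4 and 156 ± 19.5 TPM (SD, n = 3), above Ddx5 in every replicate. The lowest were Dqx1 at 0.383 ± 0.153 TPM (SD, n = 3) and the germ line helicase Tdrd9, with 0.32, 0.01 and 0.02 TPM from 12, 1 and 1 counts, under the floor in replicates 2 and 3.

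All 18 genes for helicase partners, proteins that switch these enzymes on or hold them in place, passed 1 TPM, with a median of 5.18 ± 1.45 TPM (SD, n = 3). The highest were Cnot1, the scaffold that binds Ddx6, at 148 ± 36.3, and Eif4b, which stimulates eIF4A, at 57.5 ± 8.72 TPM (SD, n = 3). The lowest were Tfip11, which activates Dhx15, at 2.06 ± 0.321, and Gpatch1 at 2.10 ± 0.731 TPM (SD, n = 3).

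Exons of 8 members overlap, on the opposite strand, those of a gene with more than 3 counts on average. The share of all genes with such an overlap was not computed. The longest such overlaps were of Ddx39 with Adgre5 (895 nt) and of Ddx49 with Homer3 (874 nt), and the shortest was of Ddx17 with Kdelr3 (4 nt). The other gene had more counts on average for Dhx30 with Smarcc1 (720 against 1880) and for Ddx28 with Dus2 (101 against 108). The strand setting of the counting is not given in the sources used here, so reads in these stretches may belong to either gene.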

How the data were processed

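RNA-seq tables of 3 replicates of E14 cells were used, with group and number read from the sample titles. Raw expected counts per gene, not normalized, were estimated by the authors and deposited as such. Per the file headers, the tables also hold TPM that the authors scaled by effective length and library, FPKM deposited by the authors and not used, and the deposited length and effective length in other columns. Per the submitters' processing notes, STAR and RSEM are among the tools and mm10 is the build; versions, annotation release and strand setting are not given in the sources used here. Per the labels' protocols, directional libraries were prepared from total RNA after rRNA removal.

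Symbols and GRCm38 coordinates came from GENCODE vM21, which matched 55227 of 55487 gene IDs. Deposited TPM was used for levels, as log2(TPM + 1) where stated, and a floor of 3 counts is 0.263, 0.464 and 0.518 CPM in replicates 1, 2 and 3. Floors cover counting error only. Estimated counts were rounded for edgeR 4.0.16 in R 4.3.3: filterByExpr, TMM, trended dispersion with an intercept only, and the goodness-of-fit test, adjusted over all genes tested and tested on simulated data. DESeq2 1.42.0 size factors were an alternative. Python 3.11.15, numpy 2.4.6, pandas 2.3.3 and matplotlib 3.10.9 did the rest. Promoter windows came from RefSeq, the window nearest the GENCODE start for each gene. Protein features were planned and were not analysed here.

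The members and lists were chosen with earlier results of these data known. Values in every replicate were given for the 10 highest members, the R-loop list, the paralog pairs, the lowest detected members and up to 4 highest of each role list; other members named, including the lowest of a list, were chosen after their values were seen.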

Additional observations from a re-analysis of the deposited data

How the results depend on the processing

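The 8 results, including the biological coefficient of variation over all genes tested, were recomputed under 56 alternatives. Only the differences of medians could change sign, and none did. Each result had a limit, a fixed ratio for counts and an SD for the others, and 41 alternatives stayed within it and 15 moved. Those within it include means with a replicate left out, which could not pass the limit. The median level of 3.26 became 6.06 as log2(CPM + 1) and 4.61 with genes under 100 nt left out of the TPM denominator. The difference from all protein-coding genes of 2.69 became 3.92 with a pseudocount of 0.1, 4.18 with CPM, 3.41 without short genes in the denominator and 0.61 among genes with at least 1 TPM. The difference between the R-loop list and other members, 1.40, became 1.51, 0.91 and 1.23 with the pseudocount, CPM and the limit of 1 TPM in turn, 2.92 with Dhx9 and Ddx5 alone as the list, and 1.19 with the longest transcript length. The Ddx minus Dhx difference of 0.47 became 0.18 with CPM. The share of the 10 highest, 58.2%, became 60.8% of counts and 56.1% with the longest transcript length. The cause was not tested in any of these. Leaving out each replicate in turn gave a biological coefficient of variation from 0.0906 (without replicate 3) to 0.206.

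The number of members called expressed, 47 at 1 TPM, ran from 38 at a limit of 5 TPM to 50 at a limit of 1 CPM. The share of all protein-coding genes past these other limits was not computed. The number varying between replicates was 0 in each of the 7 alternatives run. Without replicates 1, 2 and 3 in turn, only 89, 63 and 93 of all genes tested were called, against 232 in the main run. The 0 members in those runs therefore says little about the family. Of the levels of the 52 members, all 52 moved upward when short genes did not enter the denominator and 14 moved with the longest transcript length. A mean over 3 replicates cannot move past their SD when 1 is left out, so that comparison says nothing about the stability of levels or differences. Without replicate 1, Dhx58 went from 0.080 to 0.020 TPM. Depth limits Dhx58 and Ddx60. No paired analysis was possible because there was no other group to pair the replicates with, and genes were set against each other within each replicate.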
